A study of Mus musculus with 18 samples.

Results

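The Siglecs described here are 5 genes of the sialic acid-binding immunoglobulin-like lectin family, Cd22, Siglecg, Siglece, Cd33 and Siglec1, taken by their gene names from the transcript tables and summed per gene. They are 5 of the 24614 genes with summed counts, and all 5 were among the 13381 genes tested. Siglech, known as a marker of plasmacytoid dendritic cells, is left aside apart from its levels. The genes were measured by RNA sequencing of poly(A) RNA from conventional dendritic cells (cDC) of C57BL/6 mouse spleen. The 18 libraries form 6 groups of 3, since cells of each sorted population were taken from wild-type (WT) and from ADAM10-deficient (KO) mice, and ADAM10 is a membrane protease that sheds surface proteins and cleaves Notch receptors. Sorted cells carried CD11c and MHC class II and were CD8+ cDC1, CD4+ cDC2 or CD4-CD8- cDC2. The labels give no age or treatment, and they do not describe in which cells or how ADAM10 was removed, or whether each library is its own animal. The p-values thus measure only the spread between libraries, which may be technical.

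Siglecs are cell surface receptors that bind sialic acid, the sugar that caps many glycans on the cell's own surface. Most carry immunoreceptor tyrosine-based inhibitory motifs (ITIMs) in the cytoplasmic tail, which recruit the phosphatase SHP-1 (Ptpn6) after phosphorylation by Src-family kinases and dampen activating signals. Cd22 and Siglecg are best known as inhibitory receptors of B cells, Siglece as an inhibitory receptor of myeloid cells, and Cd33 as a myeloid surface marker. Siglec1 (sialoadhesin, CD169) has a long row of immunoglobulin domains and no ITIM, and marks metallophilic macrophages at the marginal zone of the spleen.

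On GRCm38, in the GENCODE M21 annotation, 4 of the 5 genes are on chromosome 7. Siglecg (chr7:43408204-43418358, plus strand), Cd33 (chr7:43524216-43544428, minus strand) and Siglece (chr7:43651070-43660161, minus strand) are close neighbours, Cd22 (chr7:30865402-30880342, minus strand) lies elsewhere on that chromosome, and Siglec1 is at chr2:131069220-131086765 on the minus strand. The stretches before annotated starts of 4 genes are shown because the neighbours Cd33 and Siglece had unlike patterns across the populations, while Cd22 and Siglecg fell together in KO cDC2. They are RefSeq promoter sequences (GRCm38.p6), 5′ to 3′ on the gene's strand, cut where an annotated exon of the gene overlaps them. Capitals mark GAGGAA, the core of the motif of PU.1 (a transcription factor of myeloid and B cells), or TGGGAA, the core of the motif of RBPJ (the DNA-binding partner of Notch), on either strand, so that the complements read TTCCTC and TTCCCA.
Cd33, chr7:43533172-43533364: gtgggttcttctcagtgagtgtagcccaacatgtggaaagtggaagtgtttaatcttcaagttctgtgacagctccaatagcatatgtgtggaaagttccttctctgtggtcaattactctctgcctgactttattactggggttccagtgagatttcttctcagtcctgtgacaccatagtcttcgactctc
Siglece, chr7:43660162-43660411: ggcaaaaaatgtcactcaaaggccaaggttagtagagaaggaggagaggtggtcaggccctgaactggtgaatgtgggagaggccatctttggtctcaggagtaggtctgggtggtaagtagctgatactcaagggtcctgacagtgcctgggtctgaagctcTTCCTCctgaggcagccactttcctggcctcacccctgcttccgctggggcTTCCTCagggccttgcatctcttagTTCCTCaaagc
Siglecg, chr7:43407989-43408203: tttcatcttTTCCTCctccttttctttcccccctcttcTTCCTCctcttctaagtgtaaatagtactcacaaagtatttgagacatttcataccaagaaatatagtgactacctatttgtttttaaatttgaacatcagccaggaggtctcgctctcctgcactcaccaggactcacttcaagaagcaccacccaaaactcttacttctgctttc
Cd22, chr7:30879029-30879176: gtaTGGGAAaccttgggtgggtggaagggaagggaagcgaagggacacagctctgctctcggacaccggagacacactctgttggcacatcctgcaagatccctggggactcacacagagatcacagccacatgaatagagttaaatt

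The Siglece stretch holds 3 copies of the PU.1 core and the Siglecg stretch 2, while the Cd22 stretch holds 1 RBPJ core. The Cd33 stretch as cut holds neither, and the whole window of 250 bases before that start holds 1 PU.1 core. Among 32851 promoter windows of 250 bases, 23.3% hold the PU.1 core and 21.6% the RBPJ core, so single matches are common. The Siglece stretch ends at the start of Siglece-201, the Siglecg stretch at the start of Siglecg-201 and the Cd33 stretch at the start of Cd33-203, the transcripts with most counts of these genes. The Cd22 stretch ends at the start of Cd22-201, which held 9.11% of the Cd22 counts in WT CD4+ cells. A match of letters is a description of the sequence, not a bound site.

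Library totals of estimated counts ran from 12358884 to 19557469. Adam10, the targeted gene, had 80.5 to 138 CPM (estimated counts scaled to library size by TMM) in WT cDC2 and 57.0 to 99.0 CPM in WT CD8+ cells, against 41.6 to 47.4 CPM in KO cDC2 and 28.7 to 36.4 CPM in KO CD8+ cells. It was lower in every KO library than in every WT library of its population and was still counted in the KO. Between CD8+ cells and cDC2 the sort labels matched their markers. This was not checked between CD4+ and CD4-CD8- cells. The cDC1 list includes Cd8a and the cDC2 list Cd4, both genes of the sort itself. The summed level of 8 cDC1 markers was 8028 to 10756 CPM in CD8+ libraries and 683 to 2054 CPM in cDC2 libraries. The summed level of 7 cDC2 markers was 939 to 2664 CPM in cDC2 libraries, 132 to 195 CPM in WT CD8+ libraries and 35.6 to 56.1 CPM in KO CD8+ libraries. Ribosomal protein genes took 8.34% to 9.68% of counts in WT libraries and 10.3% to 11.8% in KO libraries, and their part in the differences between genotypes was not tested.

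Per transcript length, Cd22 was the most abundant of the 5 genes in WT CD4+ cDC2, at 47.9 ± 1.61 TPM (mean ± SD, n = 3), the authors' length-scaled unit. Siglecg followed at 24.4 ± 2.03 TPM, Siglece at 15.0 ± 0.47 TPM and Cd33 at 3.11 ± 0.92 TPM. Siglec1 was at 0.0704 ± 0.0149 TPM, near the limit of detection, with 17 to 18 counts per library. In WT CD8+ cDC1 the order of mean TPM was another one, with Cd33 (7.34 ± 3.84 TPM) beside Cd22 (6.88 ± 0.71 TPM), then Siglecg (4.44 ± 1.34 TPM) and Siglece (0.261 ± 0.123 TPM). The ranges of Cd33, Cd22 and Siglecg over these WT CD8+ libraries were 2.90 to 9.76, 6.11 to 7.53 and 2.93 to 5.47 TPM, so Cd33 overlapped both others while Cd22 lay above Siglecg in every library. These sums include short noncoding transcripts, whose weight in TPM is given further on. Over the 18 libraries they held 28.2% to 64.3% of Siglecg TPM and 13.5% to 83.0% of Cd22 TPM, but 0% of Siglece TPM. The orders above thus hold for the sums, and that of Siglecg and Siglece in WT CD4+ cells may not hold for coding transcripts.

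In KO CD4+ cDC2, Cd33 and Siglec1 rose while Cd22, Siglecg and Siglece fell. The threshold for a call was an adjusted p of 0.05 in edgeR's quasi-likelihood test over all 13381 genes. All 5 members were called in CD4+ cells, 2 higher and 3 lower, where 35.1% of all genes tested were called (18.5% higher and 16.6% lower). In CD4-CD8- cells 3 members were called, 1 higher and 2 lower, beside a background of 25.9% (14.6% higher and 11.3% lower). In CD8+ cDC1 3 were called, 1 higher and 2 lower, beside a background of 15.7% (7.01% higher and 8.68% lower). The median log2 fold change of the 5 members was -0.59, -0.04 and -1.07 in CD4+, CD4-CD8- and CD8+ cells, beside 0.02, 0.02 and 0.00 over all genes tested. Each of these medians was the value of Siglece, which was not called in CD4-CD8- or CD8+ cells, so they do not describe a shift of the family. The libraries are bulk samples, in which fewer cells carrying a transcript and less of it per cell cannot be told apart.

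**Figure D1:**
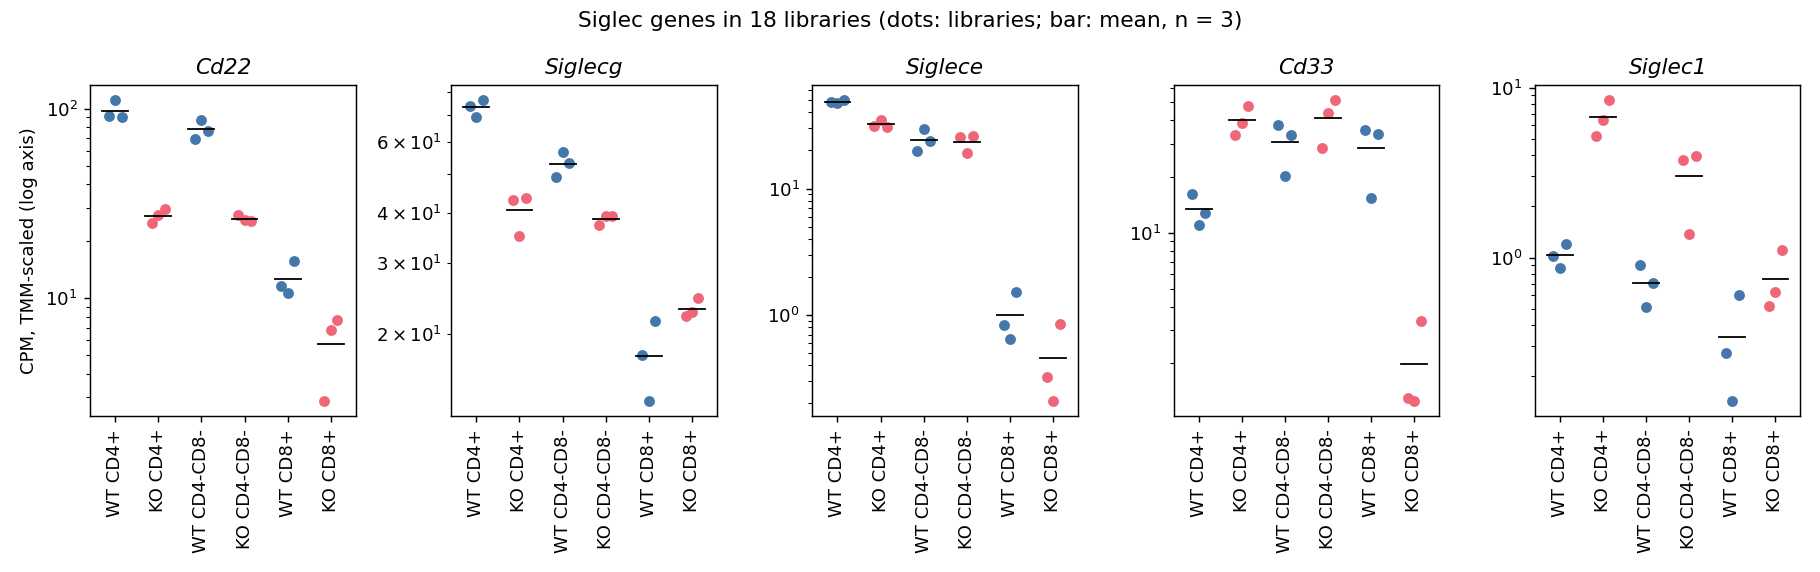
CPM of the 5 Siglec genes (log axes, scaled by TMM) in the 6 groups, with a dot per library, WT in blue, KO in red and a bar at the mean of 3 libraries. Cd22 is lower in the KO in every population, whereas Cd33 is higher in KO CD4+ libraries (33.3 to 47.9 CPM against 11.0 to 16.2 CPM) and lower in KO CD8+ libraries (1.25 to 3.38 CPM against 15.4 to 35.7 CPM).

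Cd22 encodes an inhibitory receptor that binds sialic acid in alpha2,6 linkage and restrains B cell receptor signals. In CD4+ cDC2 it was at 91.2, 111 and 90.7 CPM in the WT libraries and at 25.0, 27.4 and 29.4 CPM in the KO libraries. The groups were far apart, and the fall was 3.59-fold (log2 fold change -1.84 ± 0.20 SE, adjusted p = 1.89e-06). In CD4-CD8- cDC2 the WT libraries had 69.5, 87.4 and 76.6 CPM and the KO libraries 27.5, 25.7 and 25.7 CPM. Here too no KO library reached the lowest WT library, and the fall was 2.96-fold (-1.56 ± 0.20, adjusted p = 2.75e-05). CD8+ cDC1 had less Cd22, with 11.6, 10.6 and 15.6 CPM in WT libraries against 2.87, 6.76 and 7.66 CPM in KO libraries. These groups did not overlap either, and the fall was 2.18-fold (-1.13 ± 0.24, adjusted p = 0.00338). In CD8+ cells the call was lost with the 2 compared groups fitted alone (adjusted p = 0.0595) and with coding transcripts only (adjusted p = 0.0530). The differences between populations in the fall of Cd22 did not pass the test, with differences in log2 fold change of -0.28 ± 0.28 for CD4+ minus CD4-CD8- cells (adjusted p = 0.720), -0.72 ± 0.31 for CD4+ minus CD8+ cells (adjusted p = 0.116) and -0.44 ± 0.31 for CD4-CD8- minus CD8+ cells (adjusted p = 0.427). Without KO CD8+ library 1, the lowest in Cd22, both differences from CD8+ cells were called, at -1.04 (adjusted p = 0.00214) and -0.76 (adjusted p = 0.0280). With each library left out in turn they ranged from -1.04 to -0.45 and from -0.76 to -0.17. Both changed sign with limma on log2(TPM + 0.1) (0.28 and 0.41) and in edgeR with an offset for effective length (0.033 and 0.27). None of these 4 values was called.

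Siglecg encodes the other inhibitory Siglec known from B cells, where it restrains calcium signals. In CD4+ cDC2 the WT libraries had 73.7, 69.4 and 76.3 CPM and the KO libraries 43.0, 35.0 and 43.6 CPM. All KO libraries lay below all WT libraries, a fall of 1.81-fold (log2 fold change -0.85 ± 0.12, adjusted p = 2.94e-05). In CD4-CD8- cDC2 WT libraries had 49.1, 56.6 and 53.1 CPM, KO libraries 37.2, 39.4 and 39.2 CPM. The groups were again separate, by less, and the fall was 1.37-fold (-0.45 ± 0.12, adjusted p = 0.00985). In CD8+ cDC1 the WT libraries had 17.7, 13.6 and 21.5 CPM and the KO libraries 22.2, 22.6 and 24.5 CPM. The lowest KO library was just above the highest WT library, and the rise was 1.31-fold (0.39 ± 0.13, adjusted p = 0.0467). Only 3 of 17 alternative fits kept this call, and the adjusted p ranged up to 0.652. It was lost when WT CD8+ library 1 or 2 or any 1 of the 3 KO CD8+ libraries was left out, where the log2 fold change was as low as 0.23 without WT library 2. The effect of the KO on Siglecg did differ between cDC2 and cDC1, by -1.25 ± 0.17 on the log2 scale for CD4+ minus CD8+ cells (adjusted p = 6.90e-05) and by -0.85 ± 0.18 for CD4-CD8- minus CD8+ cells (adjusted p = 0.00381).

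Siglece encodes the main ITIM-bearing Siglec of mouse myeloid cells. In CD4+ cDC2 the WT libraries had 48.6, 47.2 and 50.1 CPM, the KO libraries 31.3, 34.9 and 30.4 CPM. The WT libraries were within 3 CPM of each other and all above the KO libraries, and the fall was 1.51-fold (log2 fold change -0.59 ± 0.19, adjusted p = 0.0227). The call was lost in 4 of the 6 fits that left out a library of these groups, those without WT library 1 or 3 or KO library 1 or 3 (adjusted p 0.0541 to 0.0712). On the TPM scale the fall was larger, at -0.97 on log2(TPM + 0.1), with an adjusted p of 0.0510. CD4-CD8- cDC2 had 19.6, 29.3 and 23.6 CPM in WT libraries against 25.4, 19.0 and 26.1 CPM in KO libraries, which overlapped (-0.04 ± 0.20, adjusted p = 0.915). In CD8+ cDC1 Siglece was close to the limit of detection, with 9 to 20 counts per WT library and 3 to 13 counts per KO library (-1.07 ± 0.44, adjusted p = 0.121). Without KO CD8+ library 3 this fall was called (-1.84, adjusted p = 0.0208), and so was the difference in KO effect for CD4-CD8- minus CD8+ cells (1.80, adjusted p = 0.0357, against 1.03 and an adjusted p of 0.190 with all libraries). The fall in CD8+ cells ranged from -1.84 to -0.66 with each library left out.

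Cd33 encodes a myeloid Siglec whose mouse form lacks the main ITIM of the human protein. In CD4+ cDC2 the WT libraries had 16.2, 11.0 and 12.8 CPM and the KO libraries 33.3, 38.9 and 47.9 CPM. Every KO library was above every WT library, a rise of 3.00-fold (log2 fold change 1.59 ± 0.33, adjusted p = 0.00132). In CD4-CD8- cDC2 the values overlapped, at 37.9, 20.3 and 33.5 CPM in WT libraries against 28.5, 43.8 and 51.5 CPM in KO libraries (0.43 ± 0.32, adjusted p = 0.374). In CD8+ cDC1 the direction was the opposite, with 35.7, 15.4 and 33.9 CPM in WT libraries against 1.30, 1.25 and 3.38 CPM in KO libraries. The KO libraries held 18 to 52 counts of Cd33 where the WT libraries held 215 to 518, and the fall was 14.2-fold (-3.83 ± 0.42, adjusted p = 7.30e-06).

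The effect of the KO on Cd33 differed between CD4+ and CD8+ cells by 5.41 ± 0.54 on the log2 scale (adjusted p = 2.21e-06) and between CD4-CD8- and CD8+ cells by 4.25 ± 0.53 (adjusted p = 5.26e-05). Between CD4+ and CD4-CD8- cells the difference was 1.16 ± 0.46 and did not pass the test (adjusted p = 0.222), whereas it passed with a replicate block within genotype (1.14, adjusted p = 0.0100). WT library 2 had the lowest Cd33 level in each of the 3 populations. With these 3 libraries left out together, the log2 fold change was 1.45 in CD4+ cells (adjusted p = 0.00266) and -4.13 in CD8+ cells (adjusted p = 4.42e-06). On the TPM scale the rise in CD4+ cells was 1.40 on log2(TPM + 0.1) and did not pass the test (adjusted p = 0.0631).

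Siglec1 encodes the adhesion receptor of marginal metallophilic macrophages and is also known to be induced by type I interferon. In CD4+ cDC2 the WT libraries had 1.03, 0.86 and 1.20 CPM, the KO libraries 5.20, 6.49 and 8.46 CPM. All KO libraries were well above all WT libraries, with 94 to 118 counts against 17 to 18, and the rise was 6.49-fold (log2 fold change 2.70 ± 0.42, adjusted p = 9.03e-05). In CD4-CD8- cDC2 WT libraries had 0.91, 0.51 and 0.71 CPM, KO libraries 3.74, 1.38 and 3.99 CPM. The groups were separate, with KO library 2 nearest to WT, and the rise was 4.22-fold (2.08 ± 0.44, adjusted p = 0.00215). In CD8+ cDC1 the values overlapped at 2 to 8 counts per WT library and 8 to 17 counts per KO library (1.14 ± 0.53, adjusted p = 0.177). The 3 differences between these effects were 0.62 ± 0.61, 1.56 ± 0.70 and 0.94 ± 0.71 for CD4+ minus CD4-CD8-, CD4+ minus CD8+ and CD4-CD8- minus CD8+ cells (adjusted p = 0.714, 0.129 and 0.460), and none passed the test in edgeR. With limma on log2(TPM + 1) and no filter, the difference for CD4+ minus CD8+ cells was called (0.35, adjusted p = 0.0121).

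**Figure D2:**
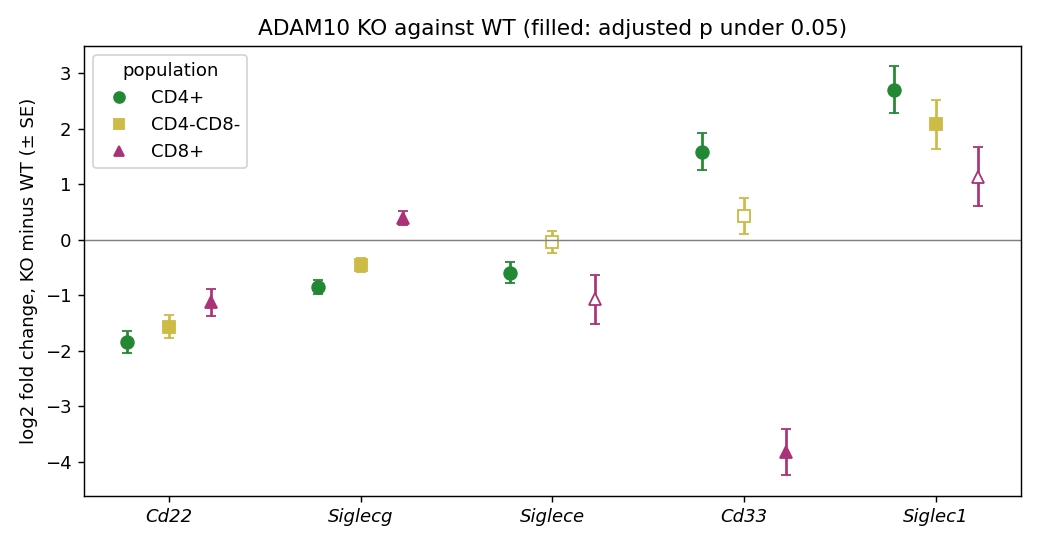
Log2 fold change of each Siglec gene, KO minus WT, with its standard error, in CD4+ (circles), CD4-CD8- (squares) and CD8+ cells (triangles). Filled symbols passed an adjusted p of 0.05. Cd22 lies below 0 in all 3 populations (-1.84, -1.56 and -1.13), while Cd33 runs from 1.59 in CD4+ to -3.83 in CD8+ cells.

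Over the 3 populations, differences between KO effects were called for 0 of 5 members between CD4+ and CD4-CD8- cells (3.76% of all genes tested). The count was 2 of 5 between CD4+ and CD8+ cells (22.1%) and 2 of 5 between CD4-CD8- and CD8+ cells (13.2%), in each case Cd33 and Siglecg. Between CD4+ and CD4-CD8- cells, 2 of the 5, Cd33 and Siglecg, had an edgeR p under 0.05 before adjustment, and DESeq2 and limma called 0 members there. The replicate block within genotype called 1, Cd33.

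The populations differed in their Siglecs before any effect of genotype. Between WT CD4+ and WT CD4-CD8- cells 3 of 5 members were called (16.7% of all genes), between WT CD4+ and WT CD8+ cells 5 of 5 (45.6%), and between WT CD4-CD8- and WT CD8+ cells 3 of 5 (42.9%). Siglece had the widest range, 49.0-fold higher in WT CD4+ than in WT CD8+ cells (log2 difference 5.61 ± 0.27, adjusted p = 7.13e-11) and 24.3-fold higher in WT CD4-CD8- than in WT CD8+ cells (4.60 ± 0.27, adjusted p = 1.61e-09). Cd22 was 7.76-fold and 6.18-fold higher in these cDC2 than in cDC1 (adjusted p = 7.99e-09 and 5.08e-08), and Siglecg 4.16-fold and 3.01-fold higher (adjusted p = 1.05e-09 and 4.00e-08). Cd33 went the other way, lower in WT CD4+ cells than in WT CD4-CD8- cells by 2.30-fold (log2 difference -1.20 ± 0.33, adjusted p = 0.0205) and than in WT CD8+ cells by 2.13-fold (-1.09 ± 0.34, adjusted p = 0.0140). Cd33 did not differ beyond its spread between WT CD4-CD8- and WT CD8+ cells (0.11 ± 0.32, adjusted p = 0.818).

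The call for Cd33 between WT CD4+ and WT CD4-CD8- cells was lost without WT CD4+ library 2 or 3 or WT CD4-CD8- library 1 or 3 (adjusted p 0.0616 to 0.0924). Its call between WT CD4+ and WT CD8+ cells was lost without WT CD4+ library 2 or WT CD8+ library 1 or 3 (adjusted p 0.0582 to 0.0746). Siglec1 was 2.99-fold higher in WT CD4+ than in WT CD8+ cells (adjusted p = 0.0188) on 17 to 18 against 2 to 8 counts per library, and this call was lost without WT CD4+ library 3 or WT CD8+ library 1 or 2 (adjusted p 0.0527 to 0.0864). Without WT CD8+ library 3, Siglec1 was called higher in WT CD4-CD8- than in WT CD8+ cells as well (log2 difference 1.74, adjusted p = 0.0342, against 1.07 and an adjusted p of 0.122 with all libraries). Between the WT cDC2, Siglece was 2.01-fold higher in CD4+ than in CD4-CD8- cells (adjusted p = 0.00153) and Siglecg 1.38-fold higher (adjusted p = 0.0113, or 0.0629 without WT CD4-CD8- library 1). With limma on log2(TPM + 1), the differences between the WT cDC2 in Siglecg (0.17, adjusted p = 0.587) and Cd33 (-0.93, adjusted p = 0.169) were not called. Both were also lost in edgeR with an offset for effective length (adjusted p = 0.225 and 0.214). Siglece lost its call with limma on log2(TPM + 0.1) (adjusted p = 0.154). Cd33 was not called between WT CD4+ and WT CD8+ cells on log2(TPM + 1) (adjusted p = 0.111).

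Between KO CD4+ and KO CD4-CD8- cDC2, 0 of 5 members were called (7.95% of all genes tested). Cd22 was at 27.3 ± 2.20 and 26.3 ± 1.06 CPM (mean ± SD, n = 3), Siglecg at 40.5 ± 4.79 and 38.6 ± 1.19 CPM and Cd33 at 40.1 ± 7.37 and 41.3 ± 11.7 CPM. Siglece (32.2 ± 2.38 against 23.5 ± 3.96 CPM) and Siglec1 (6.71 ± 1.64 against 3.03 ± 1.44 CPM) had an edgeR p under 0.05 before adjustment, which makes 2 of 5, and DESeq2 and limma called 0. Siglec1 passed with the replicate block (log2 difference 1.21, adjusted p = 0.0288) and with the block within genotype (1.19, adjusted p = 0.0388). Against KO CD8+ cells, all 5 members were higher in KO CD4+ cells (50.8% of all genes called, 25.7% higher) and all 5 in KO CD4-CD8- cells (46.6%, 24.3% higher). Cd33 was higher in KO CD4+ than in KO CD8+ cells (log2 difference 4.32 ± 0.41, adjusted p = 1.68e-07), where in WT it was lower. Siglecg was 1.75-fold higher in KO CD4+ than in KO CD8+ cells (0.81 ± 0.12, adjusted p = 3.33e-05).

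Ranked by mean CPM over the 6 groups, Cd22 was highest in WT CD4+ and WT CD4-CD8- cells, then in KO CD4+ and KO CD4-CD8- cells, and lowest in WT and then KO CD8+ cells. The neighbours WT CD4+ and WT CD4-CD8-, and KO CD4+ and KO CD4-CD8-, did not pass the test against each other. For Cd33 the KO CD4-CD8-, KO CD4+, WT CD4-CD8- and WT CD8+ groups, at means of 41.3, 40.1, 30.6 and 28.3 CPM, overlapped from each to the next, WT CD4+ came below at 13.3 ± 2.63 CPM, overlapping WT CD8+, and KO CD8+ last at 1.98 ± 1.21 CPM. For Siglec1 both KO cDC2 groups ranked above all WT groups.

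**Figure D3:**
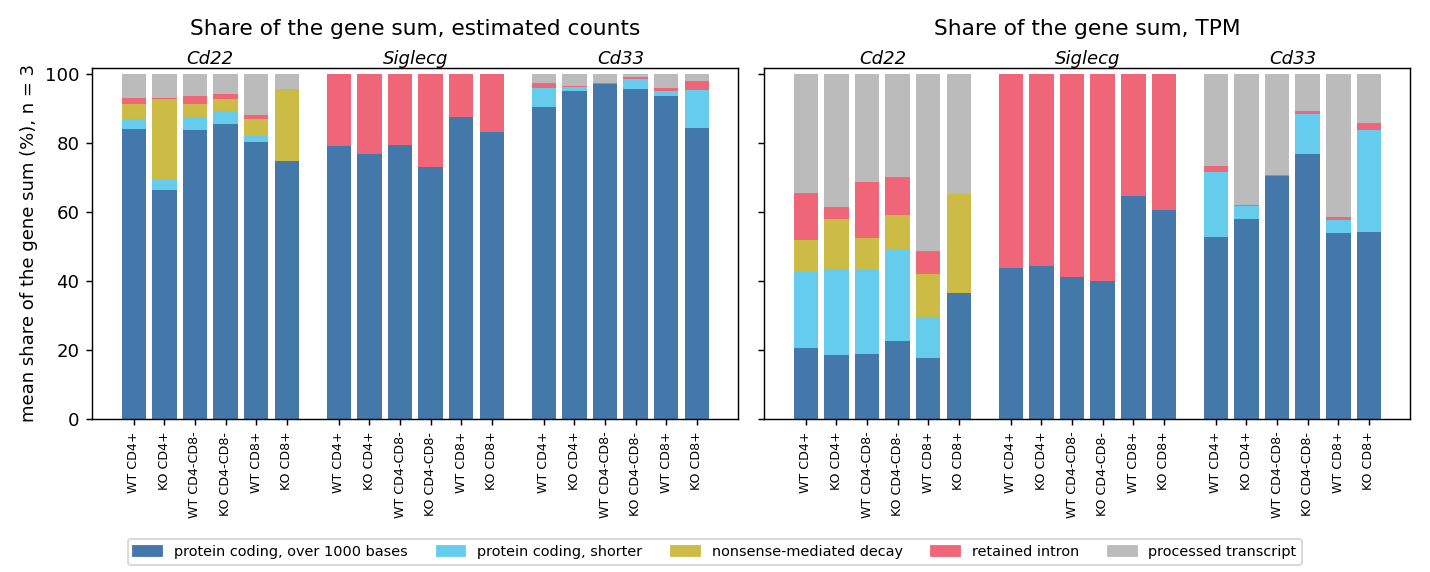
Mean share (%) of each transcript class in the gene sum of Cd22, Siglecg and Cd33, by group (n = 3), for estimated counts (left) and TPM (right). Long coding transcripts hold most counts, whereas short noncoding transcripts hold much of the TPM, with a median over the 18 libraries of 59.1% for Cd22, 54.9% for Siglecg and 31.6% for Cd33.

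The transcripts behind the gene sums were led by long coding forms. Cd33-203, 5728 bases long with 334 codons, held 83.6% ± 2.9 (SD, n = 3) of Cd33 counts in WT CD4+ cells and 86.5% ± 0.48 in KO CD4+ cells. For Cd22, a coding transcript of 3633 bases with 868 codons held 70.7% ± 5.6 of Cd22 counts in WT CD4+ cells and 47.7% ± 24 in KO CD4+ cells, where the spread between libraries was wide. Siglecg-201, the only coding transcript of Siglecg among its 6, held 79.2% ± 5.3 and 76.9% ± 4.0 of Siglecg counts in these groups. Noncoding transcripts had a median over the 18 libraries of 14.4% of counts for Cd22, 18.8% for Siglecg and 3.06% for Cd33, but 59.1%, 54.9% and 31.6% of TPM. A retained-intron transcript of Siglecg with 382 bases held 44.4% ± 4.3 of Siglecg TPM in WT CD4+ cells on 5.08% ± 0.44 of its counts. Siglec1 counts were divided between 2 coding forms, Siglec1-201 with 79.3% ± 15 in KO CD4+ cells and 35.1% ± 17 in WT CD4+ cells, the latter on 17 to 18 counts per library. The division of reads among transcripts, and among related Siglecs, is Salmon's estimate, and use of strand is not given in the labels, so reads of the antisense gene Gm29439 inside Cd22 cannot be told apart from those of Cd22.

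Since Cd22 and Siglecg are known from B cells, 13 B cell markers were set beside them. All 13 had counts, and their summed level was 281 to 323 CPM in WT CD4+, 275 to 387 CPM in KO CD4+, 308 to 348 CPM in WT CD4-CD8-, 332 to 422 CPM in KO CD4-CD8-, 341 to 356 CPM in WT CD8+ and 387 to 418 CPM in KO CD8+ libraries. Most of the sum was Ighm, the immunoglobulin heavy chain mu, at 218 to 263 CPM in WT CD4+ libraries. Cd79b, a subunit of the B cell receptor, was at 25.4 to 28.2 CPM in WT CD4+ and 38.4 to 49.2 CPM in KO CD4+ libraries. Ms4a1, which encodes CD20, had a mean of 16.8 CPM in WT CD4+ and 6.40 CPM in KO CD4+ libraries. Pax5, the B lineage transcription factor, was at 0.25 to 0.93 CPM in WT CD4+ and 0.83 to 0.93 CPM in KO CD4+ libraries. Vpreb3 was at 0 in some libraries of WT CD4+, KO CD4-CD8- and KO CD8+ cells. In the same WT CD4+ libraries Cd22 was at 91.2, 111 and 90.7 CPM, a unit not scaled to transcript length. The part of B cells in the levels of Cd22 and Siglecg was not tested.

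**Figure D4:**
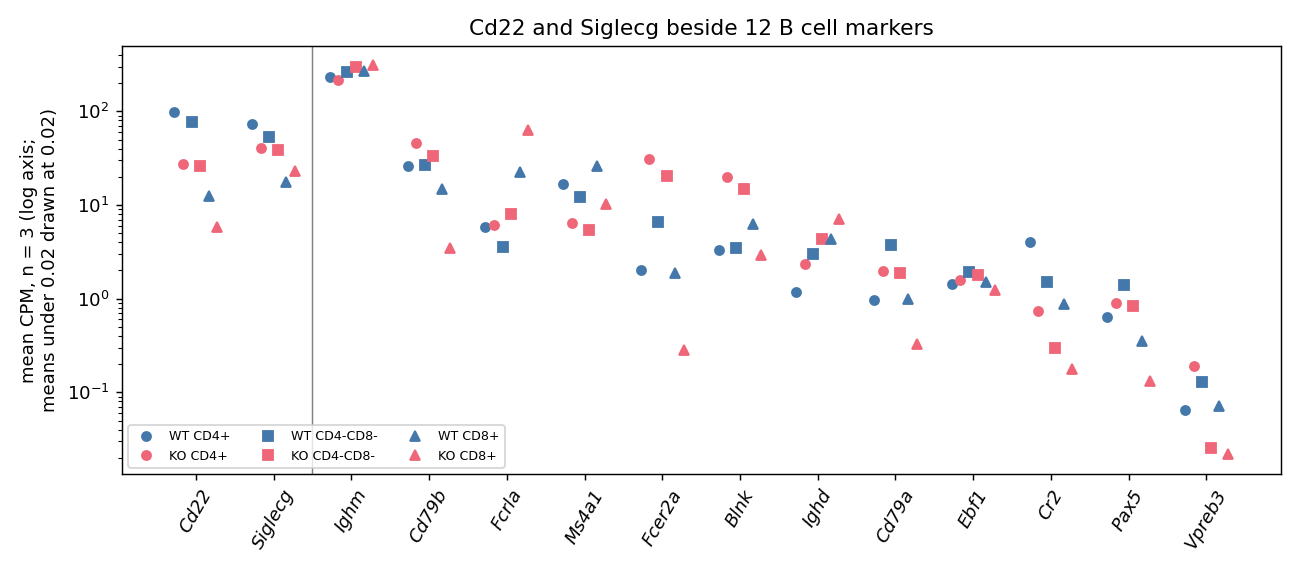
Mean CPM (n = 3, log axis) of Cd22 and Siglecg and, right of the line, of 12 B cell markers in the 6 groups. In WT CD4+ cells Cd22 is at 97.7 CPM and Siglecg at 73.2 CPM, with Ighm above both and Pax5 under 1 CPM. Ighm is high in every group. CPM is not scaled to transcript length, so levels of different genes are not strictly comparable.

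The sums of gene lists taken as macrophage markers rose with Siglec1 in cDC2 and went the other way in CD8+ cells, but not every gene followed its sum. The summed level of 6 genes listed for marginal zone and metallophilic macrophages was 230 to 307 CPM in WT CD4+ and 1065 to 1299 CPM in KO CD4+ libraries, and 376 to 511 against 1232 to 1514 CPM in CD4-CD8- libraries. Nearly all of it was Cd209a, at 201 to 276 CPM in WT CD4+ and 1014 to 1242 CPM in KO CD4+ libraries. This sum thus mostly shows the level of Cd209a, says little of the other genes and is no measure of these macrophages. The scavenger receptor gene Marco was at 0.46 to 0.54 CPM in WT CD4+ and 0.97 to 2.38 CPM in KO CD4+ libraries. Cd209b did not follow the sum, at 8.54 to 8.98 CPM in WT CD4+ and 7.24 to 10.2 CPM in KO CD4+ libraries, which overlapped. In KO CD4+ against WT CD4+ cells 4 of the 6 markers were called higher and 0 lower (18.5% and 16.6% of all genes tested), and none was at 0 in these groups. The 11 red pulp macrophage markers summed to 635 to 722 CPM in WT CD4+ and 1347 to 1580 CPM in KO CD4+ libraries (8 called higher, 1 lower). Most of the WT CD4+ sum was Adgre1, which went the other way, with means of 467 CPM in WT CD4+ and 368 CPM in KO CD4+ cells. The 13 monocyte markers summed to 2958 to 3216 and 12238 to 15982 CPM (7 called higher, 4 lower). In CD8+ libraries the marginal zone list summed to 73.5 to 109 CPM in WT and 20.3 to 43.8 CPM in the KO (1 called higher, 1 lower), and the red pulp list to 89.1 to 121 and 56.4 to 96.3 CPM (0 called higher, 3 lower). Of all genes tested, 7.01% were called higher and 8.68% lower in CD8+ cells. Siglec1 there had means of 0.34 CPM in WT and 0.75 CPM in the KO, a difference that was not called. The part of these cell types in the rise of Siglec1 and Cd33 was not tested.

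Summed markers of other cell types also differed with genotype. In CD4-CD8- libraries 7 NK cell markers summed to 213 to 566 CPM in WT and 23.1 to 65.2 CPM in the KO, and 7 T cell markers to 136 to 283 and 11.7 to 50.5 CPM. All 14 were called lower, beside 11.3% of all genes tested. In CD8+ libraries the NK sums were 5.59 to 48.8 CPM in WT and 1.39 to 5.72 CPM in the KO, and the T cell sums 7.71 to 36.3 and 2.30 to 10.9 CPM, which overlapped. The T cell sum was higher in KO CD4+ (8.40 to 15.4 CPM) than in WT CD4+ libraries (4.21 to 4.83 CPM). In CD8+ libraries the 7 cDC2 markers were lower in the KO for 5 of 7, where 8.68% of all genes tested were called lower. Sirpa, a cDC2 receptor, fell there from 61.6 to 87.0 CPM in WT to 11.2 to 22.3 CPM. The part of other cells in the falls of Cd33 and Cd22 in KO CD8+ libraries was not tested.

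The remaining family members gave low or unlike values. Siglech was at 33.2 to 46.5 CPM in WT CD4+ and 29.7 to 58.8 CPM in KO CD4+ libraries, and fell in KO CD8+ cells (14.4 to 29.0 against 32.9 to 54.3 CPM, log2 fold change -1.03 ± 0.28, adjusted p = 0.0178). The 10 plasmacytoid dendritic cell markers summed to 480 to 581 CPM in WT CD8+ and 322 to 387 CPM in KO CD8+ libraries (1 called higher, 4 lower), and to 453 to 478 and 689 to 825 CPM in CD4+ libraries (4 called higher, 0 lower). Of all genes tested, 7.01% were called higher and 8.68% lower in CD8+ cells, and 18.5% and 16.6% in CD4+ cells. The part of plasmacytoid dendritic cells in the levels of Siglech was not tested. Mag, the myelin-associated glycoprotein gene and neighbour of Cd22, rose in KO CD4+ cells from 0.23 ± 0.09 to 3.06 ± 0.21 CPM (SD, n = 3; adjusted p = 1.29e-05). Siglecf, an eosinophil and alveolar macrophage receptor, stayed at or under 2.99 CPM and was called higher in KO CD8+ cells (adjusted p = 0.0284). Siglec15 reached at most 0.15 CPM and was not among the genes tested.

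Genes that make, attach and remove sialic acid, the ligand of Siglecs, were counted beside the share of all genes called in CD4+, CD4-CD8- and CD8+ cells (35.1%, 25.9% and 15.7%). Of 9 genes of sialic acid synthesis and turnover, 0 rose and 2 fell in CD4+ cells, 0 rose and 2 fell in CD4-CD8- cells, and 0 rose and 1 fell in CD8+ cells. So few genes cannot be set apart from that background. The median log2 fold changes were -0.04, -0.11 and -0.18, beside 0.02, 0.02 and 0.00 over all genes tested. Npl, the lyase that breaks down free sialic acid, fell from 44.9 ± 3.54 to 4.17 ± 1.10 CPM in CD4+ cells (-3.43 ± 0.22 on the log2 scale, adjusted p = 5.93e-09). Its log2 fold change was -2.95 in CD4-CD8- and -2.53 in CD8+ cells. Cmas, which makes the activated sugar donor CMP-sialic acid, fell from 38.2 ± 0.68 to 30.5 ± 0.34 CPM in CD4+ cells (-0.33 ± 0.10, adjusted p = 0.0132) and fell in CD4-CD8- cells too (-0.37). The other 7 genes, Gne, the first enzyme of the pathway, among them, did not pass the test in any population.

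Of 20 sialyltransferases, 13 were tested, and 1 rose and 2 fell in CD4+, 2 rose and 1 fell in CD4-CD8-, and 1 rose and 3 fell in CD8+ cells (median log2 fold changes -0.03, 0.17 and -0.11). The same background was 35.1%, 25.9% and 15.7%, and whether these 13 genes differ from it was not tested. St6galnac6 rose from 21.3 ± 0.52 to 52.5 ± 3.98 CPM in CD4+ cells (1.30 ± 0.11, adjusted p = 7.29e-08) and by 1.01 on the log2 scale in CD4-CD8- cells. St3gal5, which makes the ganglioside GM3, fell in CD4+ cells (54.0 ± 1.86 to 27.5 ± 1.79 CPM, adjusted p = 2.62e-06) and rose in CD8+ cells (123 ± 14.6 to 194 ± 6.66 CPM, adjusted p = 0.000299). St8sia1, the GD3 synthase, rose in CD4-CD8- cells (67.1 ± 3.25 to 99.0 ± 12.4 CPM, adjusted p = 0.00147) and fell in CD8+ cells (21.6 ± 3.25 to 8.77 ± 1.61 CPM, adjusted p = 4.33e-06). St3gal6 fell in both cDC2 (log2 fold changes -1.05 and -1.31), and St3gal2 (-0.73) and St3gal1 (-0.46) fell in CD8+ cells. St6gal1, which makes the alpha2,6-linked ligand of Cd22, was not called in any population. Of the 4 sialidases, which remove sialic acid, 2 were tested and neither passed the test in any population.

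**Figure D5:**
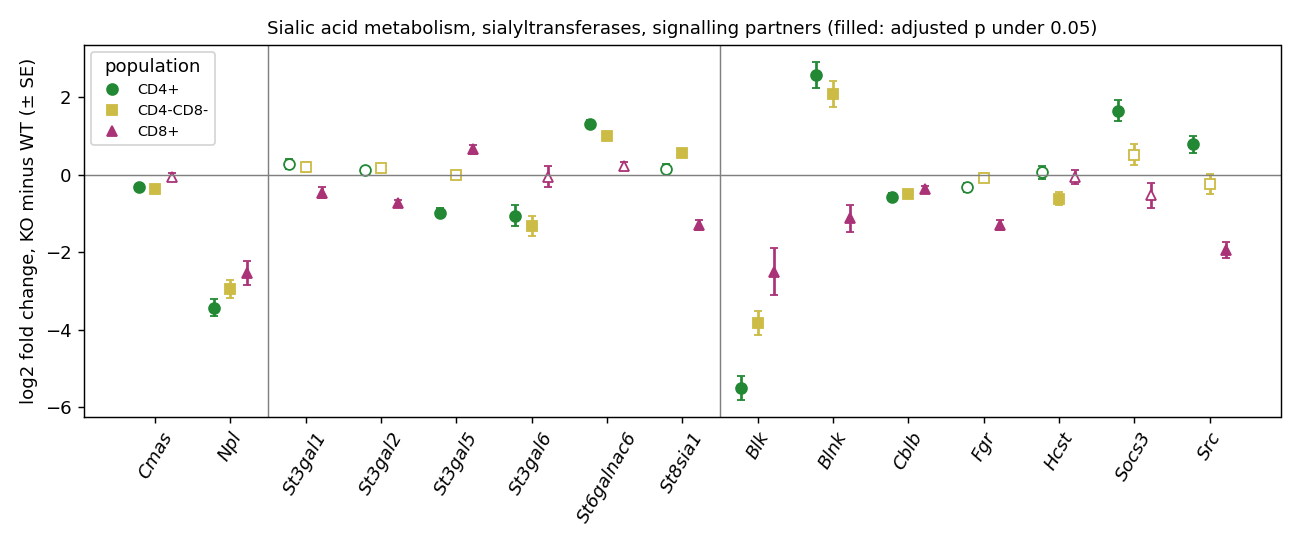
Log2 fold changes, KO minus WT, with standard errors, of named genes of sialic acid synthesis (left), sialyltransferases (middle) and signalling partners of Siglecs (right), with filled symbols for an adjusted p under 0.05. Npl and Blk lie below 0 in all 3 populations, and St3gal5, St8sia1 and Blnk change sign between cDC2 and CD8+ cells.

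Among 21 genes of ITIM and DAP12 signalling, all tested, 3 rose and 6 fell in CD4+, 2 rose and 7 fell in CD4-CD8-, and 0 rose and 5 fell in CD8+ cells (median log2 fold changes -0.04, -0.03 and -0.11). Over all genes tested the shares called were 35.1%, 25.9% and 15.7%. The phosphatase genes Ptpn6 (SHP-1) and Ptpn11 (SHP-2) and the adaptor gene Tyrobp (DAP12) passed the test in none of the 3 populations. The Src-family kinase gene Blk, known from B cells and plasmacytoid dendritic cells, fell from 37.7 ± 7.33 to 0.83 ± 0.41 CPM in CD4+ cells (-5.50 ± 0.31, adjusted p = 1.54e-09). Its log2 fold change was -3.82 in CD4-CD8- and -2.50 in CD8+ cells. Blnk, an adaptor below Syk, rose in both cDC2 (log2 fold changes 2.59 and 2.09) and fell in CD8+ cells (-1.12 ± 0.35, adjusted p = 0.0401). Socs3, a feedback inhibitor of cytokine signals, rose in CD4+ cells (17.0 ± 3.30 to 53.8 ± 11.0 CPM, adjusted p = 0.00019), while Src (-1.94 ± 0.20) and Fgr (-1.29 ± 0.13) fell in CD8+ cells. Cblb, a ubiquitin ligase, fell in all 3 populations, and Hcst (DAP10) fell in CD4-CD8- cells.

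Because Siglec1 can be induced by interferon, 24 interferon-stimulated genes were counted beside it. In CD4+ cells 4 rose and 5 fell, in CD4-CD8- cells 5 rose and 2 fell, and in CD8+ cells 5 rose and 1 fell, with median log2 fold changes of -0.20, 0.08 and 0.36. Over all genes tested 35.1%, 25.9% and 15.7% were called and the medians were 0.02, 0.02 and 0.00, so the counts in both cDC2 were near the background. In CD8+ cells 7.01% of all genes tested were called higher and 8.68% lower, beside 5 and 1 of these 24. Whether the 24 genes differ from the background there was not tested.

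The genes with the most similar levels over the 18 libraries are given as a description, by Pearson's r of log2(CPM + 1) among genes with a mean of at least 5 CPM, where libraries share their groups. For Cd22 they were Clec4a4 (r = 0.981), Apbb1ip (r = 0.981) and Tgm2 (r = 0.979). Clec4a4, the lectin gene known as DCIR2, had a mean of 124 CPM in WT CD4+ cells. For Siglece they were Adgre1, which encodes F4/80 (r = 0.997), Cass4 (r = 0.991) and Gm9733 (r = 0.990), and Adgre1 was at 467 CPM in WT CD4+ and 7.70 CPM in WT CD8+ cells. For Siglecg they were Sema4d (r = 0.959), Ap1s2 (r = 0.958) and Lbh (r = 0.956). For Cd33 they were Adora2a (r = 0.955), an adenosine receptor gene, Snx18 (r = 0.949) and Gm9973 (r = 0.946), each with its lowest mean in KO CD8+ cells. For Siglec1 they included Plxna1 (r = 0.950) and Mitf (r = 0.941), each with its highest mean in KO CD4+ cells. Among the members, r over the same 18 libraries was 0.902 for Siglecg and Siglece, 0.889 for Cd22 and Siglecg, 0.867 for Cd22 and Siglece, and 0.112 for Cd22 and Siglec1.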

How the data were processed

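Per the submitters' processing notes, FastQC 0.11.8, Salmon 0.14.1 and GRCm38 were used, and other upstream settings are not given in the sources used here. The authors deposited estimated counts and TPM per transcript for 18 libraries. Transcripts were summed per gene. Of 152 transcripts without a gene name, 37 were named from GENCODE M21 and 115 left out (at most 0.160% of a library). Sums were rounded, filtered with filterByExpr and scaled by TMM (CPM) in edgeR 4.0.16 (R 4.3.3). All 18 libraries entered a quasi-likelihood model with 6 group means, which leaves 12 residual degrees of freedom, with two-sided tests and Benjamini-Hochberg adjustment over 13381 genes per comparison for 12 comparisons. The method was tested on simulated data. Alternatives used DESeq2 1.42.0, limma 3.58.1 on log2(TPM + 1), other filters, scalings and samples, and a replicate block. Libraries of a group differed beyond counting error, with a chi-square per gene of 9.74 to 33.4 over 18 pairs.

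The members and gene lists were chosen with earlier results of these data known. Named genes were the members, the other Siglec genes, Adam10, up to 4 called genes per sialic acid or signalling list and population (at least 5 CPM in the higher group), and the 3 genes most alike to each member. Genes of a list named as not called, single markers and Src, Cblb and Blk beyond that rule were chosen after their values were seen. Of the genes this rule and the marker lists gave, 3 are not reported by name here. Promoter windows of 4 members came from RefSeq (GRCm38.p6).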

Additional observations from a re-analysis of the deposited data

Results flagged for a closer look

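The effect of the KO on 2 members differed between populations by an interaction test in edgeR. For Cd33 the log2 fold change in CD4+ cells exceeded that in CD8+ cells by 5.41 (adjusted p = 2.21e-06), and that in CD4-CD8- cells exceeded it by 4.25 (adjusted p = 5.26e-05). For Siglecg the difference was -1.25 for CD4+ minus CD8+ cells (adjusted p = 6.90e-05) and -0.85 for CD4-CD8- minus CD8+ cells (adjusted p = 0.00381). The Cd33 differences share the low KO CD8+ libraries, and the Siglecg differences share KO CD8+ libraries whose rise was called in 3 of 17 alternatives.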

How the results depend on the processing

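Of 60 results (5 genes in 12 comparisons), 36 were called, 27 of them in every alternative run. The TPM alternatives give the short noncoding transcripts more weight, and the low counts of Siglec1 and of Siglece in CD8+ cells limit what depth can show; Siglec1 was not tested under the TPM filter. Genes called changed by more than 1.5 times in the following. With limma on log2(TPM + 1) they were 3117 in place of 4692 (KO minus WT, CD4+), 266 in place of 503, 1434 in place of 2962 and 981 in place of 1761 (differences between KO effects, CD4+ minus CD4-CD8-, CD4+ minus CD8+ and CD4-CD8- minus CD8+), 1397 in place of 2241 and 4017 in place of 6106 (WT CD4+ minus CD4-CD8- and minus CD8+), and 468 in place of 1064, 4374 in place of 6801 and 3898 in place of 6240 (KO, the 3 population differences). With log2(TPM + 0.1) the same counts were 3101, 163, 1440, 803, 1334, 4063, 445, 4487 and 4020. With no filter on TPM they were 2999, 1350, 960, 4029, 449, 4499 and 3863 for the same comparisons apart from the 2 between CD4+ and CD4-CD8- cells in KO effect and in WT, and 1266 in place of 2099 (KO minus WT, CD8+). With the offset for effective length they were 3096 (KO minus WT, CD4+), 2186 in place of 3471 (CD4-CD8-), 1397 (CD8+), 191, 1801 and 903 (KO effects), 1258 (WT CD4+ minus CD4-CD8-) and 542 (the same in the KO). The last was 665 with the compared groups alone. Without the WT libraries numbered 2, chosen after seeing the data, 288 (KO effect, CD4+ minus CD4-CD8-) and 1440 (WT CD4+ minus CD4-CD8-) were called. With each library left out in turn, the KO effect difference between the cDC2 called 306 to 549 genes and the KO difference between them 664 to 947.

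Of the 5 members, KO minus WT in CD4+ cells called 2 with log2(TPM + 0.1). In CD8+ cells it called 1 with the compared groups alone and 1 with coding transcripts only, the latter chosen after seeing the data. WT CD4+ minus CD4-CD8- called 1 with log2(TPM + 1), filtered or not, 0 with log2(TPM + 0.1), 1 with the length offset, and 1 to 3 with a library left out. WT CD4+ minus CD8+ called 3 under each TPM setting and 3 to 5 with a library left out.

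Same-numbered libraries deviated together within WT (r 0.126 to 0.316 over 9 pairs, all over 0.1) and within the KO (0.0705 to 0.351, 8 of 9 over 0.1), and all 18 correlated best with their own number. Between WT and KO of the same population r was -0.109 to 0.200, with 3 of 9 pairs over 0.1, and 4 correlated best with their own number. For the libraries numbered 3, r was 0.200 in CD4+, 0.159 in CD4-CD8- and 0.00657 in CD8+ cells. For those numbered 1 it was -0.109, 0.0297 and -0.0822, and for those numbered 2 it was 0.148, 0.000504 and -0.0559. Whether the numbers pair genotypes was not tested. With the replicate block, Siglec1 passed between KO CD4+ and KO CD4-CD8- cells (log2 difference 1.21, adjusted p = 0.0288), so 1 member was called there. With a replicate block within genotype, added after seeing the data, Siglec1 there (1.19, adjusted p = 0.0388) and the Cd33 difference in KO effect between CD4+ and CD4-CD8- cells (1.14, adjusted p = 0.0100) passed, so 1 member was called in each, and 850 genes were called for that KO effect difference. The blocks changed no other member's call.

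The following changed sign, all of them not called to begin with. On log2(TPM + 1), filtered or not, Cd33 was -0.016 for KO minus WT in CD4-CD8- cells and 0.27 for CD4+ minus CD4-CD8- in the KO, where Siglecg was -0.069 and Cd22 -0.10. On that scale the KO effect on Siglece was -0.83 for CD4+ minus CD8+ (adjusted p = 0.0387 with the filter, 0.0755 without) and -0.22 for CD4-CD8- minus CD8+. On log2(TPM + 0.1) these values were -0.0077 and 0.31 for Cd33, -0.075 for Siglecg, -0.11 for Cd22 and -0.62 for Siglece, and the KO effect on Cd22 was 0.28 for CD4+ minus CD8+ and 0.41 for CD4-CD8- minus CD8+. With the length offset, Siglece was -0.53 (KO effect, CD4+ minus CD8+), Cd22 0.033 and 0.27 (KO effects against CD8+), Cd33 -0.16 (WT CD4-CD8- minus CD8+) and 0.31 (KO CD4+ minus CD4-CD8-), and Cd22 there -0.041. Cd22 there was -0.33 with coding transcripts only. Siglece in KO minus WT CD4-CD8- cells was 0.10 without the WT libraries numbered 2. With a library left out, the ranges were -0.19 to 0.10 for Siglece in KO minus WT CD4-CD8- cells, -0.17 to 0.35 for Cd33 in WT CD4-CD8- minus CD8+, and -0.25 to 0.15 for Cd33 and -0.0048 to 0.11 for Cd22 in KO CD4+ minus CD4-CD8-. The cause of these changes was not tested.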
